A study of Mus musculus with 2 samples.

Results

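Squamous cells of the prenatal gastroesophageal squamocolumnar junction (GE-SCJ) made up 81 of the 7808 cells of a mouse single-cell RNA-seq pool, 47 from embryonic day 15 (E15) and 34 from E19. They were taken by the class label deposited for each cell, either of 2 squamous labels, together with the tag that marks its region and stage. Their genes were compared with those of esophageal squamous cells of the same stage, 64 at E15 and 123 at E19, and with those of columnar cells of the same junctions, 53 at E15 and 274 at E19. The study dissected esophagus, GE-SCJ and stomach from E15 and E19 embryos, 2-day pups and 8-week adults. All animals were wild type C57BL/6 mice without treatment. The series' design text gives 6 mice for E15 and 2 for E19. The number of mice in the study's methods for single-cell sequencing matches neither. Mice were pooled under each tag and cells carry no mouse label, so each region and stage is 1 sample and no difference could be tested. The level of a gene is its number of unique molecular identifiers (UMIs) in all cells of a group together, per 1000000 UMIs of the group (CPM). Values in parentheses after a level, a log2 ratio or a share are exact 95% intervals for counting error only, which say nothing of the spread between mice.

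The region and stage of a cell rest on a short oligonucleotide that was attached to all cells of a dissection before pooling. The tag sequences of the 4 prenatal groups compared here are shown because each assignment depends on telling them apart.
CMO301, E15 esophagus: atgaggaattcctgc
CMO302, E15 GE-SCJ: catgccaatagagcg
CMO304, E19 esophagus: aacgttaatcactca
CMO305, E19 GE-SCJ: cgcgatatggtcgga
The 15-base tags of E15 esophagus and E15 GE-SCJ differed at 12 positions, and those of E19 esophagus and E19 GE-SCJ at 9. All 7808 cells had the same tag in both deposited lists, and no barcode was listed more than once.

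Stratified squamous epithelium is renewed from a basal layer that rests on the basement membrane, expresses the transcription factor *Trp63* and the keratins *Krt5* and *Krt15*, and divides. Cells that leave this layer switch to suprabasal keratins such as *Krt13* and *Krt4* and later to cornified envelope genes. The prenatal foregut is first lined by a simpler epithelium rich in *Krt8*, *Krt18* and *Krt19*, keratins that the glandular stomach keeps, and *Krt7* is known from transitional epithelia.

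At E15 the junction squamous cells held 904232 UMIs in all, with a median of 15924 per cell and a range of 4443 to 60637. At E19 they held 538863 UMIs, with a median of 14167.5 and a range of 1168 to 45865. The median mitochondrial share was 1.9% at E15 and 2.66% at E19. A sum of 0 UMIs is read as up to 3 UMIs over the group, which is 3.32 CPM at E15 and 5.57 CPM at E19. Squamous cells were 6.99% (5.18 to 9.19) of the 672 E15 junction cells and 2.61% of the 1304 E19 junction cells. Of labelled junction epithelium they were 47.0% at E15 and 11.04% at E19, shares that dissection and recovery can set.

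The label held for the 4 marker genes of the population. *Krt5* (chr15:101707070-101712898, GRCm38) stood at 599 CPM at E15 and 663 CPM at E19, against 4.53 and 6.0 CPM in junction columnar cells. *Trp63* (chr16:25683763-25892102) stood at 233 and 98.4 CPM, against 3.02 and 1.26 CPM in columnar cells. *Krt15* stood at 2310 and 2925 CPM, against 21.9 and 26.8 CPM. *Krt7* (chr15:101411043-101430313) stood at 436 and 1908 CPM, against 147 and 150 CPM. Every marker was therefore several-fold above the columnar level at both stages. The labels were made by clustering these same counts, so these levels describe the classes and are no test of them.

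**Figure D1:**
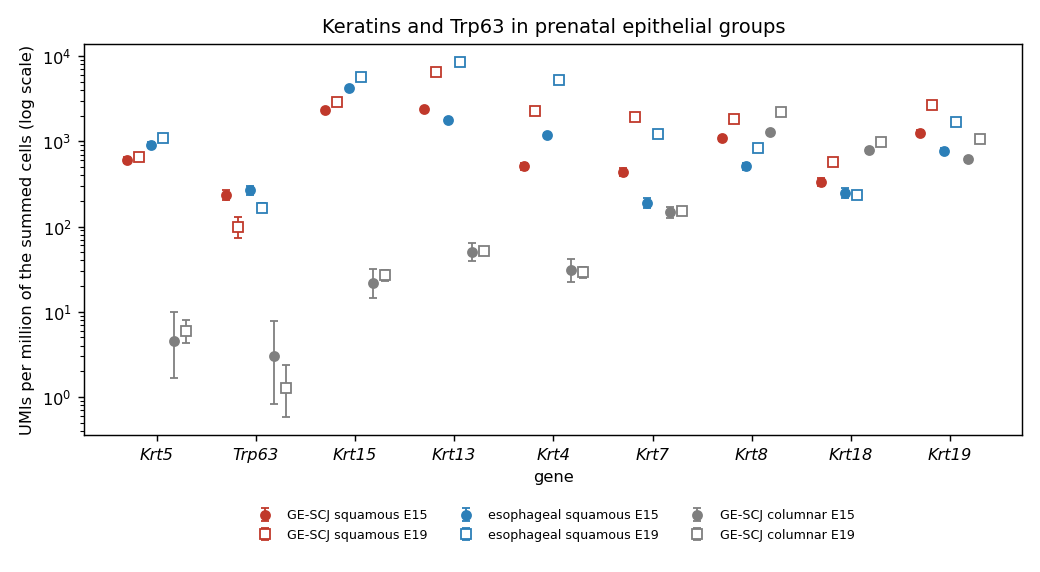
Summed level of 8 keratin genes and *Trp63* in 6 prenatal groups, in CPM on a log axis, with exact 95% counting intervals; filled circles are E15 and open squares E19. *Krt5*, *Trp63*, *Krt15*, *Krt13* and *Krt4* separate both squamous groups from columnar cells, whereas *Krt8* of the junction squamous cells lies between the esophageal squamous and the columnar level at both stages.

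The cells did not come from a single deposited cluster. At E15, 46 lay in cluster 10, which holds most prenatal squamous cells, and 1 lay in cluster 7, a cluster of 370 cells of which 315 were adult. At E19, 27 lay in cluster 10, 3 in cluster 7 and 4 in cluster 15, and those last 4 carry the second squamous label and 12.8% of the group's UMIs. Some cells also carried many UMIs of markers of other lineages. The 1 E15 cell of cluster 7 held 59 of the group's 65 immune marker UMIs and 127 of its 317 fibroblast marker UMIs. At E19, 2 cells held 475 of 520 smooth muscle marker UMIs and 3 cells held 548 of 657 fibroblast marker UMIs. Neural markers summed to 7 UMIs at E15 and 0 at E19, and endothelial markers to 19 and 6. Whether such cells are doublets was not tested.

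The first comparison asks how squamous cells at the border differ from squamous cells of the esophagus proper. At E15, of 2963 genes with at least 100 UMIs over both groups, 50 (1.69%) were past 2-fold higher in the junction and 80 (2.7%) past 2-fold lower. Higher genes were thus 38.5% of those past 2-fold, and 50% with cells thinned to 5000 UMIs. At E19, of 3139 genes, 122 (3.89%) were higher and 112 (3.57%) lower. Of those past 2-fold 52.1% were higher, 63.5% with 5 UMIs added to each sum and 39.6% without the top cell of each gene. Across 15871 genes the summed profile of the E15 junction cells had a Pearson r of 0.962 with esophageal squamous, 0.937 with junction columnar and 0.839 with junction fibroblast cells. At E19 the same 3 values were 0.949, 0.903 and 0.783. These correlations run across genes, which are not replicates, and the junction cells were nearer the esophageal squamous profile at both stages. The squamous label was made by clustering these same counts, so this order describes the class and is no test of it.

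Of 2238 genes that passed the same filters at both stages, 19 were past 2-fold higher at both and 22 past 2-fold lower at both. The gene that stood out most among the higher ones was *Ifitm1* (chr7:140967221-140969825), a small interferon-inducible membrane protein also known from germ cells and early embryos. It stood at 458 CPM in E15 junction cells and 50.9 CPM in E15 esophageal cells, a log2 ratio of 3.14 (2.72 to 3.59). At E19 it stood at 592 CPM against 26.3 CPM, a log2 ratio of 4.46 (4.01 to 4.94). Single E15 junction cells ranged from 0 to 2825 CPM with a median of 326 CPM, whereas the esophageal median was 0. The ranges overlapped, since the highest E15 esophageal cell reached 525 CPM. With every cell thinned to 5000 UMIs, *Ifitm1* was detected in 77.8% of 45 E15 junction cells (unthinned 89.4%) and 20.7% of 58 esophageal cells. It was also detected in 10.4% of 67 E15 immune cells, taken from all regions together. Immune cells serve as a measure of free RNA although some of them may express the gene. At E19 the thinned shares were 60.0% of 30 junction cells, 5.83% of 103 esophageal cells and 16.7% of 126 immune cells, so the esophageal share lay below the immune share. Junction columnar cells had 174 and 244 CPM of *Ifitm1*, below the summed junction squamous level at both stages. At E19 this held for the sum alone, since the median columnar cell had 174 CPM and the median squamous cell 166 CPM, 57.9% and 60.0% of thinned cells had a UMI, and 10 of the 34 squamous cells held 79.9% of the UMIs.

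Its neighbour on chromosome 7, *Ifitm3* (chr7:141009586-141010770), stood at 800 against 154 CPM at E15 and at 501 against 156 CPM at E19. The members of this family resemble each other in sequence, and reads may be split among them. *Ass1*, argininosuccinate synthase of the urea cycle and arginine synthesis, stood at 128 against 29.5 CPM at E15 and 234 against 32.2 CPM at E19. *Igfbp2*, a binding protein of insulin-like growth factors, stood at 1033 against 263 CPM and 575 against 81.9 CPM, and all 47 E15 junction cells had a UMI of it. *Gpx2*, the glutathione peroxidase of gut epithelium, stood at 206 against 37.7 CPM and 169 against 50.3 CPM, with 59.3% of its E19 esophageal UMIs in 1 cell. The junction level of each of these genes was more than 3-fold the esophageal level at both stages. The median columnar cell at E15 and E19 had 32.4 and 43.2 CPM of *Ifitm3*, the median junction squamous cell 709 and 363 CPM. For *Ass1* these medians were 35.6 and 112 against 126 and 138 CPM, for *Igfbp2* 463 and 113 against 1010 and 492 CPM. For *Gpx2* they were 57.45 and 153 against 150.5 and 85.9 CPM, so the columnar median was higher at E19.

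*Id3*, an inhibitor of basic helix-loop-helix factors and a common target of bone morphogenetic protein (BMP) signalling, stood at 206 against 52.9 CPM at E15 and 247 against 41.0 CPM at E19. *Gas6*, a ligand of the TAM receptors, stood at 125 against 47.8 CPM and 230 against 74.3 CPM. *Ociad2*, a mitochondrial and endosomal protein, stood at 102 against 39.7 CPM and 106 against 33.4 CPM. For these 3 genes the junction columnar cells had similar levels, between 116 and 289 CPM. *Tpm2*, a tropomyosin, differed in this respect, with 212 against 65.1 CPM at E15, 479 against 91.3 CPM at E19, and 50.6 and 41.7 CPM in columnar cells. *Phlda1* stood at 95.1 against 32.6 CPM and 367 against 83.7 CPM. The median columnar cell had 160 and 208 CPM of *Phlda1*, above the 52.7 and 95.8 CPM of the median junction squamous cell.

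Among genes lower in the junction, the transcription factor *Foxe1* (chr4:46343609-46346412, plus strand), known from thyroid, palate and foregut development, was close to absent. It had 8 UMIs in 5 of 47 E15 junction cells, 8.85 CPM, against 180 UMIs in 49 of 64 esophageal cells, 183 CPM, a log2 ratio of -4.21 (-5.36 to -3.25). At E19 it had 7 UMIs in 3 of 34 cells, 13.0 CPM, against 148 CPM, a log2 ratio of -3.32 (-4.55 to -2.32). Thinned, 2.22% of E15 junction cells and 56.9% of esophageal cells had a UMI, and the immune share was 1.49%. The junction share therefore cannot be told from the free RNA level at this depth. Unthinned, where cells differ in depth, 10.6% of E15 junction and 1.22% of E15 immune cells had a UMI, and 8.82% and 0.556% at E19. Columnar cells of the junction had 0 UMIs at E15 and 0.14 CPM at E19.

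*Smoc2*, a matricellular protein, stood at 6.63 against 172 CPM at E15 and 18.6 against 90.7 CPM at E19. *Sema3d*, a secreted guidance cue, stood at 22.1 against 142 CPM and 1.86 against 68.5 CPM. *Krt17* (chr11:100256217-100261029), a keratin of embryonic and injured stratified epithelia whose sequence is close to that of *Krt14*, stood at 104 against 437 CPM and 16.7 against 372 CPM. The esophageal level was more than 3-fold the junction level of each at both stages. *Fndc1* stood at 17.7 against 112 CPM and 13.0 against 108 CPM, and *Rbms3*, an RNA-binding protein, at 43.1 against 204 CPM and 11.1 against 125 CPM. Without the top cell of each group the E19 log2 ratios of *Sema3d*, *Krt17* and *Fndc1* came from -4.22, -4.33 and -2.87 to -5.1, -5.54 and -3.79. The paternally expressed zinc finger gene *Peg3* stood at 54.2 against 174 CPM and 24.1 against 79.6 CPM.

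*Vcan*, a proteoglycan, *Meis2*, a homeobox cofactor, and *Nfia* completed the 10 named genes lower at both stages. All 3 were also abundant in fibroblasts of the same regions. *Meis2* (chr2:115863064-116065839) stood at 45.3 against 413 CPM at E15, a log2 ratio of -3.16 (-3.65 to -2.7), and at 50.1 against 274 CPM at E19. *Vcan* stood at 32.1 against 251 CPM and 22.3 against 134 CPM. *Nfia* stood at 28.8 against 182 CPM and 26.0 against 101 CPM. The 7 fibroblast markers, led by *Col3a1* and *Col1a1*, summed to 351 CPM in E15 junction and 1872 CPM in E15 esophageal squamous cells, with *Pdgfra* at 0 in the junction, and to 1219 and 1360 CPM at E19. Set against fibroblasts of the same tag, the share of fibroblast RNA would be 2.35% in E15 junction and 6.4% in E15 esophageal squamous cells, and 5.25% and 2.85% at E19. At those shares fibroblast RNA would add 38.3 CPM of *Meis2*, 41.5 CPM of *Vcan* and 44.6 CPM of *Nfia* to the E15 esophageal sum, of 413, 251 and 182 CPM measured. Of the 1839 fibroblast marker UMIs of the E15 esophageal squamous cells 2 cells held 52.0%, and the part of fibroblast RNA in these differences was not tested. For *Dcn* and *Col1a2*, which were lower in the E15 junction at -2.98 and -2.45, the same sum gives 297 and 429 CPM, beside 505 and 356 CPM measured in the esophagus. Both genes belong to the 7 markers that set the share, so this sum is not independent of their own levels. Without squamous cells led by markers of another lineage *Col1a2* came to 0.02.

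**Figure D2:**
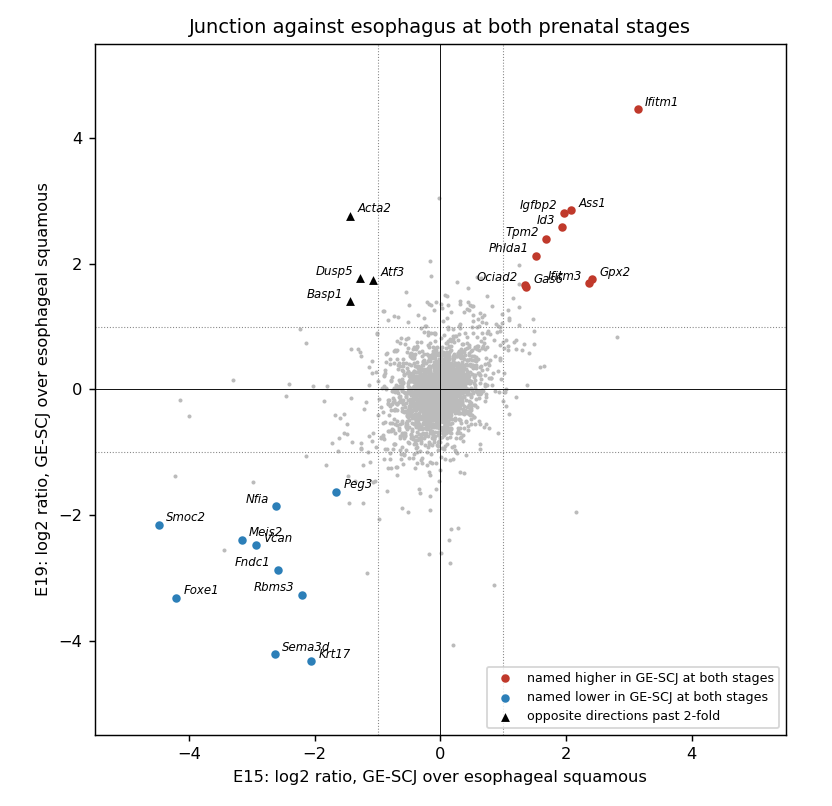
Log2 ratio of GE-SCJ over esophageal squamous cells at E15 (x) and E19 (y) for 2579 genes with at least 100 UMIs in both comparisons, with dotted lines at 2-fold. The 10 named genes in red lie past 2-fold higher at both stages, from *Ociad2* to *Ifitm1*, the 10 in blue past 2-fold lower, and 4 genes in black are past 2-fold in opposite directions.

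Some genes were among the most different in their sums at a single stage. At E15, *Plac8* had 285 CPM in the junction against 39.7 CPM in the esophagus and 459 CPM in columnar cells, and at E19 846 against 474.5 CPM, a log2 ratio of 0.84. Its median cell had 226 and 400.5 CPM in the junction and 0 in the esophagus at both stages. *Sfta2* had 117 against 16.3 CPM at E15. *Krt14*, the basal partner keratin of *Krt5*, had 5 UMIs in 4 E15 junction cells, 5.53 CPM, against 116 CPM in the esophagus, where 24 of 64 cells had it. At E19, 1 junction cell held 73 of the 79 *Krt14* UMIs, so the summed 147 CPM describes that cell. *Nnat*, an imprinted membrane protein gene, stood at 26.5 against 260 CPM at E15. *Cstb*, cystatin B, stood at 890 against 284 CPM at E15 and 867 against 671 CPM at E19.

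At E19 the ratio of *Sprr2a3*, of a clustered family of small proline-rich cornified envelope proteins, was 5.13 (4.62 to 5.69), with 675 CPM in the junction, 18.7 CPM in the esophagus and 417 CPM in columnar cells. Reads of that family may be split between near-identical copies. Of the junction *Sprr2a3* UMIs 10 of 34 cells held 94.2%. The median junction squamous cell had 134 CPM, beside 133 CPM in columnar cells and 0 in the esophagus. *Areg*, amphiregulin, a ligand of the epidermal growth factor (EGF) receptor, stood at 503 against 30.4 CPM in the esophagus and 60.3 CPM in columnar cells, with 16 of 34 cells positive and none of its 271 UMIs in the 4 cells of the second label. *Dhrs9*, a retinol dehydrogenase of epithelia, stood at 126 against 20.5 CPM, and at E15 at 46.4 against 4.07 CPM. *Aqp4*, a water channel, had 97 UMIs in 18 junction cells, 180 CPM, against 2 UMIs, 1.17 CPM, in 123 esophageal cells and 12 CPM in columnar cells. It fell short of the 100 UMIs asked for, and was chosen after its value was seen. *Tagln*, *Actg2* and *Acta2*, genes of smooth muscle, were also higher at E19, with 282, 171 and 440 CPM, but 1 cell held 150 of the 237 *Acta2* UMIs and 86 of the 152 *Tagln* UMIs. Of the *Actg2* UMIs 1 cell held 67.4%, and without the top cell of each group its log2 ratio of 3.0 came to 1.52. Lower at E19 were *Tmprss11a*, *Plb1* and *Cd109*, with 3.71, 3.71 and 7.42 CPM against 63.2, 58.5 and 69.6 CPM, and *Calml3*, with 94.6 against 567 CPM.

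Keratins were read as a group of their own. Of 6 simple epithelial keratin genes with at least 30 UMIs, 3 were past 2-fold higher in the junction at E15 and 4 at E19, and none was past 2-fold lower. Among all genes with at least 30 UMIs, 2.31% were higher and 5.03% lower at E15, and 5.09% and 6.14% at E19. The group's median log2 ratio was 0.9 at E15 and 1.2 at E19, beside -0.08 and -0.02 over all such genes. *Krt8* (chr15:101996698-102004482) stood at 1088 against 508 CPM at E15 and 1808 against 826 CPM at E19. Single E15 junction cells had between 57.0 and 3893 CPM of *Krt8* with a median of 819 CPM, and esophageal cells between 0 and 3357 CPM with a median of 179 CPM. Thinned, 88.9% of junction and 51.7% of esophageal cells had a UMI at E15, beside 32.8% of immune cells, the measure of free RNA used here. At E19 the shares were 83.3% (65.3 to 94.4) and 79.6% (70.5 to 86.9), with 35.7% in immune cells, so a difference in the share of cells was not detectable at this depth.

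*Krt7* was higher in the junction at E15, with a log2 ratio of 1.2 (0.94 to 1.46), and was higher by 0.64 (0.53 to 0.75) at E19. The median E19 junction cell had 1008 CPM of *Krt7* and the median esophageal cell 203 CPM. Of the E19 junction UMIs of *Krt7*, 51.5% came from the 4 cells of the second label. *Krt18* stood at 333 against 248 CPM and 573 against 238 CPM, *Krt19* at 1268 against 775 CPM and 2669 against 1707 CPM, and *Krt23* at 28.8 against 7.12 CPM and 262 against 90.7 CPM. *Krt20*, a keratin of differentiated surface cells, had 48 UMIs in 7 E19 junction cells, 89.1 CPM, against 4.68 CPM in the esophagus. Both *Krt5* and *Krt8* were found in 71.1% of thinned E15 junction cells, 43.1% of esophageal squamous cells and 2.98% of immune cells. At E19 the order was opposite, with 46.7% (28.3 to 65.7) of junction and 69.9% (60.1 to 78.6) of esophageal cells and 3.97% of immune cells.

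Of 13 basal genes, 1 was past 2-fold higher and 4 lower at E15, with a median of -0.88, beside 2.31% higher and 5.03% lower of all such genes. At E19 1 was higher and 1 lower, with a median of -0.74, beside 5.09% and 6.14%. The higher gene was the same at both stages, *Itga6*, the integrin subunit that anchors cells to laminin, with 98.4 against 43.8 CPM and 106 against 38.6 CPM. Its partner *Itgb4* stood at 56.4 against 121 CPM and 53.8 against 97.7 CPM. The laminin chain *Lamb3* stood at 29.9 against 63.1 CPM at E15, and the hemidesmosomal collagen *Col17a1* at 76.1 against 168 CPM at E19. *Krt15* was lower by 0.88 and 0.95 on the log2 scale and *Krt5* by 0.6 and 0.72, all short of 2-fold, while *Trp63* was lower by 0.2 and 0.74.

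**Figure D3:**
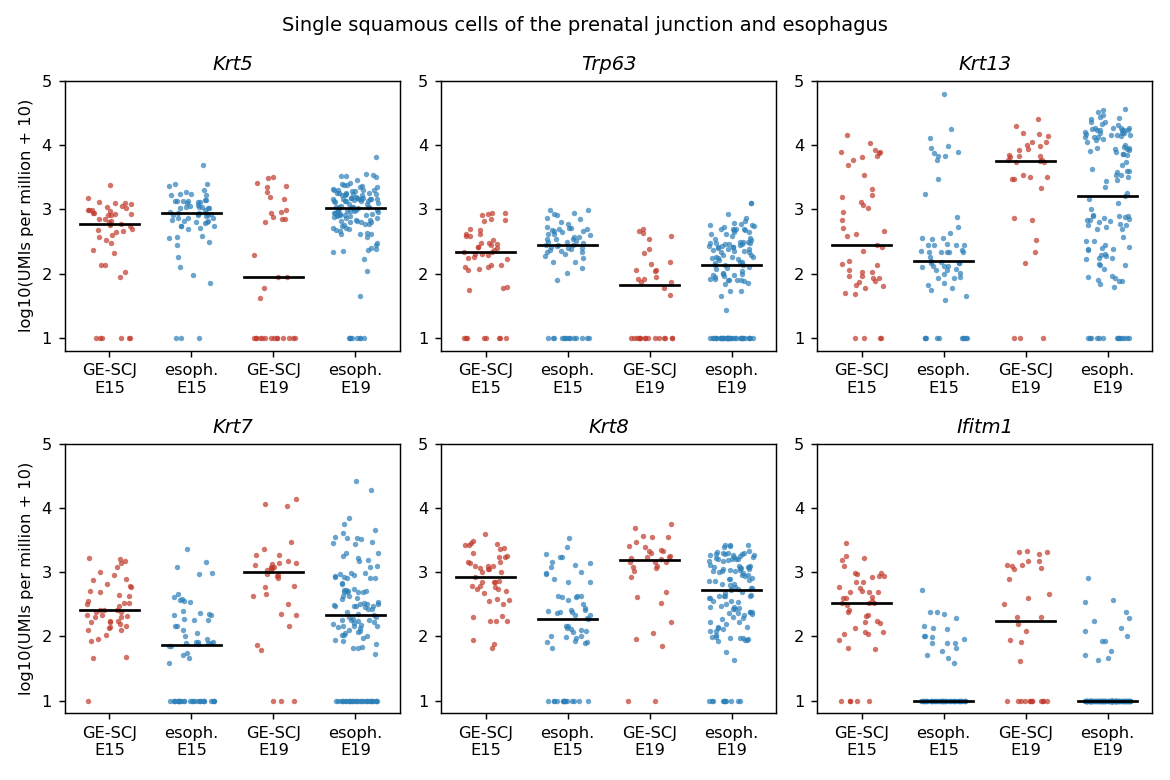
Each point is 1 squamous cell of the junction (red) or the esophagus (blue); the y axis is log10 of its CPM with 10 added, so that cells without a UMI lie at 1, and bars are medians. The median *Krt5* of E19 junction cells lies far below that of the other groups while *Krt13* lies above, and most esophageal cells have no *Ifitm1*.

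Suprabasal and cornified genes were split. Of 18 such genes with enough UMIs at E15, 4 were higher and 3 lower in the junction, with a median of 0.23, beside 2.31% higher and 5.03% lower of all such genes. Of 26 at E19, 4 were higher and 7 lower, with a median of -0.46, beside 5.09% and 6.14%. *Krt13* stood at 2368 against 1772 CPM at E15 and 6540 against 8453 CPM at E19, and *Krt4* at 510 against 1198 CPM and 2281 against 5249 CPM. *Ly6d* was at 3287 against 1078 CPM at E19. *Sprr1a*, *Lgals7* and *Tgm1* were higher in the E15 junction, with 71.9, 280 and 57.5 CPM against 10.2, 130 and 20.4 CPM. However, 1 junction cell held 85.8% of the *Lgals7* UMIs, and without the top cell of each group its log2 ratio was -1.11. At E19 *Dmkn*, *Krtdap* and *Sbsn*, secreted proteins of keratinocytes, were lower, with 234, 163 and 87.2 CPM against 589, 424 and 233 CPM. The transglutaminase *Tgm3* had 6 UMIs in 1 junction cell, 11.1 CPM, against 118 CPM.

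*Krt13* was concentrated in few cells at E15. The lowest, median and highest E15 junction cell had 0, 266 and 14670 CPM, and 10 cells held 88.1% of its UMIs. At E19 the same 3 values were 0, 5718 and 25910 CPM, and 10 cells held 67.0%. The spread of *Krt5* over the junction cells was wider at E19. Its median was 580 CPM at E15 and 78.0 CPM at E19, and 20 of 34 E19 cells had a UMI, whereas the summed level was 599 and 663 CPM. In the esophagus 115 of 123 E19 cells had a *Krt5* UMI, with a median of 1029 CPM. Thinned, the E19 shares were 50% (31.3 to 68.7) in the junction, 89.3% (81.7 to 94.5) in the esophagus and 7.14% in immune cells.

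Within the junction cells *Krt13* and *Krt4* had a Spearman rho of 0.61 at E15 over 47 cells and 0.61 at E19 over 34 cells. *Krt13* and *Trp63* had a rho of -0.38 at E15 and -0.06 at E19, while in the esophagus it was -0.34 over 64 cells and -0.71 over 123 cells. *Krt7* and *Krt8* had a rho of 0.52 at E15 and -0.06 at E19. These values describe cells of 1 sample that share its library and differ in depth, and no test was made on them.

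Of 17 transcription factors of the squamous lineage with at least 30 UMIs, 1 was higher and 2 lower at E15, beside 2.31% higher and 5.03% lower of all such genes, and 2 were higher and 2 lower at E19, beside 5.09% and 6.14%. The lower ones were *Foxe1* and *Pax9* (chr12:56691767-56712822) at both stages, and *Pax9*, a paired box factor of the foregut, stood at 54.2 against 194 CPM and 79.8 against 188 CPM. *Foxq1*, a forkhead factor of gastric surface cells, was higher at both stages with 339 against 160 CPM and 538 against 224 CPM, and was higher still in columnar cells at 508 and 842 CPM. *Ehf* stood at 176 against 124 CPM at E15 and 410 against 164 CPM at E19. *Klf5* was within 0.19 of equal on the log2 scale at both stages. *Sox2*, which marks the foregut, stood at 310 against 245 CPM and 124 against 214 CPM.

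Of 12 columnar endoderm factors with at least 30 UMIs at E15, 9 were past 2-fold lower than in columnar cells and none higher, beside 8.02% and 5.21% of all such genes. *Gata4* and *Gata6* stood at 9.95 and 15.5 CPM in E15 junction squamous cells against 106 and 175 CPM in columnar cells, and *Hnf4a* and *Foxa3* at 3.32 CPM each, which is the level of 3 UMIs, against 32.5 and 37.0 CPM. The others were closer, with *Foxa1* at 123 against 230 CPM, *Foxa2* at 71.9 against 55.1 CPM and *Sox21* at 191 against 168 CPM. In esophageal squamous cells *Gata4* and *Gata6* stood at 8.14 and 15.3 CPM, close to the junction squamous values. A UMI of both *Trp63* and *Gata6* was seen in 4.44% of thinned E15 junction cells and in 6.9% of esophageal cells.

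Genes that mark position along the gut axis were read next. The Iroquois homeobox genes *Irx3* (chr8:91798525-91802067, minus strand) and *Irx5* (chr8:92357625-92376286, plus strand) belong to the same gene cluster. *Irx3* had 51 UMIs in 24 of 47 E15 junction cells, 56.4 CPM, against 6 UMIs in 4 of 64 esophageal cells, 6.11 CPM, a log2 ratio of 3.01 (1.87 to 4.4). At E19 it had 22 UMIs in 13 of 34 cells, 40.8 CPM, against 4 UMIs, 2.34 CPM. *Irx5* stood at 48.7 against 11.2 CPM and 44.5 against 10.5 CPM. *Irx2*, on chromosome 13, stood at 16.6 against 7.12 CPM and 39.0 against 3.51 CPM. *Irx3* at E19 and *Irx2* at both stages had fewer than 30 UMIs over both groups. No thinned immune cell of either stage had *Irx3*. Columnar cells of the junction had 14.4 and 11.3 CPM of *Irx3*, below the squamous cells beside them.

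*Hoxc5* (chr15:102967443-103017429) stood at 53.1 against 9.16 CPM at E15, a log2 ratio of 2.41 (1.41 to 3.56), with UMIs in 25 of 47 cells, and at 5.57 against 5.85 CPM at E19. *Hoxc6*, whose annotated span lies within that of *Hoxc5*, stood at 35.4 against 12.2 CPM and 5.57 against 8.19 CPM, and reads cannot always be placed in 1 of the pair. *Hoxc4* stood at 77.4 against 55.0 CPM at E15. *Meis1* stood at 138 against 61.1 CPM and 96.5 against 57.9 CPM, opposite to *Meis2*. *Pbx3*, a partner of Hox proteins, stood at 16.6 against 54.0 CPM and 16.7 against 48.6 CPM. *Hoxb3* had 1 UMI in E15 junction cells and 25 in esophageal cells. Its sum at E15, like those of *Hoxc5* and *Hoxc6* at E19, lay below the minimum of 30 UMIs. Of the whole list of 32 such genes, 9 had enough UMIs at E15, of which 5 were higher and 2 lower with a median of 1.17, beside 2.31% higher and 5.03% lower of all such genes, and 8 at E19, of which 1 was higher and 4 lower with a median of -0.7, beside 5.09% and 6.14%. Thinned to 5000 UMIs per cell, which leaves fewer genes above the minimum, the medians came to -0.15 and 0.06.

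**Figure D4:**
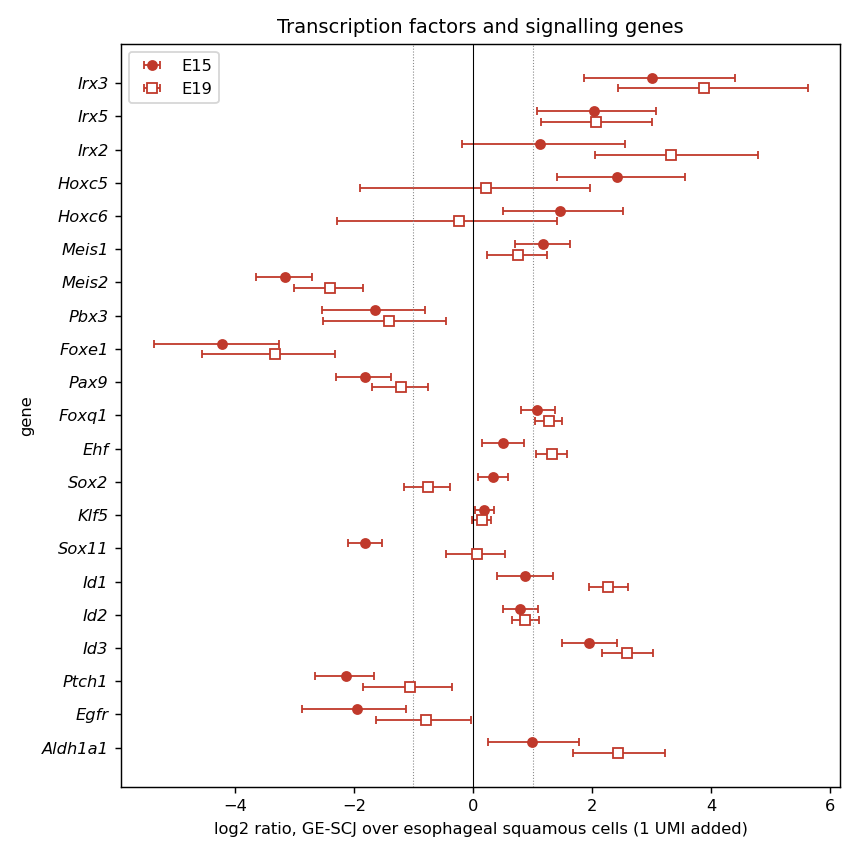
Log2 ratio of GE-SCJ over esophageal squamous cells for 21 transcription factor and signalling genes, at E15 (filled) and E19 (open), with exact 95% counting intervals and dotted lines at 2-fold. *Irx3* and *Irx5* lie to the right and *Foxe1*, *Meis2*, *Pbx3* and *Pax9* to the left at both stages, while *Hoxc5* and *Sox11* lie near 0 at E19.

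Signalling genes were compared in the same way. WNT signalling in the gut is read through targets such as *Axin2*, *Sp5* and *Notum*, the last a secreted enzyme that inactivates WNT ligands. *Notum* (chr11:120653788-120661175) had 29 UMIs in 15 of 47 E15 junction squamous cells, 32.1 CPM, and 0 UMIs in the esophageal squamous and in the junction columnar cells of that stage. That is at least 10.5-fold above the esophagus and at least 14.15-fold above columnar cells, taking 3 UMIs over the group as the floor. *Sp5* had 12 UMIs in 10 cells against 0 in the esophagus, at least 4.35-fold higher, and *Axin2* had 22.1 against 7.12 CPM, a log2 ratio of 1.51 (0.28 to 2.9). At E19 none of the 3 genes had a UMI in the 34 junction cells, which for *Notum* is at least 5.76-fold lower than at E15. These 3 genes lie below the minimum of 30 UMIs and were chosen after their values were seen. Of the 12 WNT genes above it, none was higher and 2 were lower at each stage, beside 2.31% higher and 5.03% lower of all such genes at E15 and 5.09% and 6.14% at E19. Those at E15 were *Wnt5b* and *Sfrp1*, with 14.4 and 5.53 CPM against 31.6 and 29.5 CPM, and *Wnt5b* came to -0.98 on the log2 scale without the top cell. The ligand *Wnt4* stood at 364 against 521 CPM and 583 against 611 CPM.

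Of the inhibitor of differentiation genes, which follow BMP signals, *Id3* was past 2-fold higher at both stages and *Id1* at E19 alone. *Id1* stood at 114 against 62.1 CPM at E15 and 366 against 75.5 CPM at E19, and *Id2* at 274 against 158 CPM and 510 against 277 CPM. *Id4*, with fewer than 30 UMIs over both groups, stood at 8.85 against 17.3 CPM and 11.1 against 5.85 CPM. Columnar cells had 196 and 408 CPM of *Id1*. Of 9 measured BMP and transforming growth factor genes, 1 was higher and 1 lower at E15, and of 10 at E19, 2 were higher and 1 lower, beside 2.31% higher and 5.03% lower of all such genes at E15 and 5.09% and 6.14% at E19. *Bmp7* stood at 26.5 against 55.0 CPM and 5.57 against 25.7 CPM. *Ptch1*, receptor and target of the hedgehog pathway, stood at 47.6 against 214 CPM at E15, a log2 ratio of -2.14 (-2.65 to -1.67), and 33.4 against 73.1 CPM at E19. *Shh* itself stood at 118 against 104 CPM and 18.6 against 27.5 CPM. Of 5 hedgehog genes, *Ptch1*, *Gli3* and *Cdon* were lower at E15, beside 5.03% of all such genes, and *Ptch1* at E19, beside 6.14%. All 5 fibroblast markers with enough UMIs were lower at E15 too, with a median of -2.41. The fibroblast RNA shares given above would add 24.2 CPM of *Ptch1*, 6.05 CPM of *Gli3* and 1.85 CPM of *Cdon* to the E15 esophageal sums of 214, 35.6 and 25.4 CPM, and 28.0 of the 33.4 CPM of *Ptch1* in the E19 junction. Their part in these differences was not tested.

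In the EGF and fibroblast growth factor list none of 13 genes was higher and 3 were lower at E15, and 2 of 15 were higher and 2 lower at E19, beside 2.31% higher and 5.03% lower of all such genes at E15 and 5.09% and 6.14% at E19. *Egfr* stood at 15.5 against 63.1 CPM and 29.7 against 53.8 CPM, and the feedback inhibitor *Spry2* at 15.5 against 55.0 CPM and 5.57 against 24.6 CPM. The ligands higher at E19 were *Areg* and *Hbegf*, the latter with 252 against 72.0 CPM. *Pdgfa* stood at 198 against 346 CPM and 79.8 against 175 CPM. Of 10 Notch genes at E15 none was higher and 2 were lower, and of 9 at E19, 3 were higher and 2 lower, beside the same shares of all genes. The higher ones were *Hes1*, *Hes6* and *Nrarp*, with 841, 48.3 and 66.8 CPM against 416, 16.4 and 32.2 CPM, and without the top cell of each group *Hes1* and *Nrarp* came to log2 ratios of 0.98 and 0.94, short of 2-fold. *Dlk2* stood at 13.3 against 34.6 CPM and 3.71 against 42.7 CPM, the latter 2 UMIs of 1 junction cell. Of 8 retinoic acid genes none passed 2-fold at E15, with a median of -0.1. Of 8 at E19, 2 were higher and none lower, with a median of -0.3, beside 5.09% and 6.14% of all such genes. The higher ones were *Aldh1a1*, which makes retinoic acid, with 74.2 against 13.5 CPM, and *Rdh10* with 44.5 against 11.1 CPM.

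Metabolic and barrier genes were mixed. Of 17 detoxification genes at E15, 3 were higher and 3 lower, and of 18 at E19, 3 were higher and 2 lower, beside 2.31% higher and 5.03% lower of all such genes at E15 and 5.09% and 6.14% at E19. *Fabp5* stood at 1912 against 942 CPM and *Gsta4* at 546 against 266 CPM at E15, while *Cyp2f2*, a cytochrome of epithelia, stood at 165 against 545 CPM and the alcohol dehydrogenase *Adh1* at 14.4 against 55.0 CPM. *Prdx6* and *Cbr2* stood at 564 and 880 CPM against 236 and 342 CPM at E19. Of 12 tight junction genes at E15, 3 were higher and none lower, *Cldn6*, *Cldn7* and *Cldn23*, with 68.6, 519 and 32.1 CPM against 23.4, 225 and 12.2 CPM. *Cldn4* stood at 323 against 155 CPM at E19, a log2 ratio of 1.06 that came to 0.77 without the top cell. *Cldn18*, the stomach claudin, stood at 55.3 against 35.6 CPM and 37.1 against 27.5 CPM, against 881 and 1127 CPM in columnar cells. Of its E15 junction squamous UMIs 1 cell held 52%, and the log2 ratio of -3.97 to columnar cells came to -4.87 without the top cell of each group. Of 8 desmosomal genes none passed 2-fold at E15. Of 9 at E19, *Dsg3* and *Dsc2* were lower, with 74.2 and 77.9 CPM against 232 and 171 CPM. *Dsg2*, with 119 against 59.7 CPM, was counted as past 2-fold higher only through the 1 UMI added to each sum. Without the top cell it was short of 2-fold at 0.89 on the log2 scale.

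*Sox11*, a factor of embryonic progenitors, stood at 141 against 496 CPM at E15, a log2 ratio of -1.81 (-2.1 to -1.53), and at 85.4 against 83.1 CPM at E19. *Mdk*, midkine, stood at 581 against 288 CPM at E15 and 70.5 against 73.7 CPM at E19. Of 19 embryonic and fetal genes at E15, 2 were higher and 3 lower, beside 2.31% higher and 5.03% lower of all such genes, and of 17 at E19, 4 were higher and 3 lower, beside 5.09% and 6.14%. Of 16 gastric products at E15 none was higher and 4 were lower, with a median of -0.09, of which *Pgc* rests on 1 esophageal cell with 1184 UMIs. At E19 6 of 20 were higher and 1 lower, with a median of 0.56 that turned to -0.38 without the 4 cells of the second label and to -0.28 without the top cell of each gene. *Atp4a*, a subunit of the parietal cell proton pump, was among them with 713 CPM, of which 353 of 384 UMIs lay in 1 cell.

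The second comparison places the cells against the columnar cells on the other side of the junction. At E15, of 3548 genes, 127 (3.58%) were past 2-fold higher in squamous cells and 216 (6.09%) lower. Higher genes were 37.0% of those past 2-fold, and 50% thinned. At E19, of 7568 genes, 493 (6.51%) were higher and 885 (11.7%) lower. Of those past 2-fold 35.8% were higher, but 67.3% with 5 UMIs added to each sum and 22.1% without the top cell of each gene, so the balance of higher and lower genes turned with that setting. More genes reached the minimum at E19, where the columnar group held 274 cells. The highest ratios at E15 belonged to *Krt6a*, *Krt5*, *Cyp2f2*, *Krt15*, *Upk3bl* and *Dapl1*, and *Cbr2*, *Hspb1*, *Trp63*, *Ly6d*, *Hopx* and *Krt13* followed. *Hspb1*, a small heat shock protein, stood at 1071 against 15.9 CPM, and *Dapl1* at 315 against 3.78 CPM. *Upk3bl*, of the uroplakin family, stood at 270 against 3.02 CPM.

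The lowest ratios at E15 belonged to *Sult1d1*, *Vsig2*, *Apoa1*, *Cldn18*, *Lgals4* and *Ctse*, and *Tspan8*, *Ttr*, *Cym*, *Ihh*, *Pla2g10* and *Vsig1* followed. *Cym*, chymosin, stood at 1746 CPM against 21890 CPM, and 1 squamous cell held 49.1% of its squamous UMIs. Without the top cell of each group its log2 ratio of -3.65 came to -4.5. *Ctse*, cathepsin E, stood at 11.1 against 183 CPM, *Apoa1* at 8.85 against 159 CPM and *Lgals4* at 12.2 against 204 CPM. *Ihh*, the hedgehog ligand of gastric epithelium, stood at 6.63 against 94.4 CPM. Esophageal squamous cells had 1529 CPM of *Cym* and 11.2 CPM of *Lgals4*, close to the junction squamous values. At E19 *Ghrl*, ghrelin, stood at 37.1 against 1285 CPM, but 1 columnar cell held 96.8% of the columnar UMIs, and without the top cell of each group the log2 ratio of -5.04 came to -0.19. *Olfm4* stood at 1.86 against 97.6 CPM, while *Tm4sf5*, *Chad*, *Myo16* and *Maob* had 0 UMIs in squamous cells. The genes highest at E19 included *Tnfaip2* with 202 against 0.56 CPM, *Hopx* with 605 against 2.93 CPM, and *Asprv1* with 904 against 3.91 CPM, of whose squamous UMIs 1 cell held 65.9%.

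By list, 8 of 11 basal genes and 14 of 17 suprabasal genes were past 2-fold higher in squamous than in columnar cells at E15, beside 5.21% of all genes with at least 30 UMIs, and 9 of 12 columnar transcription factors and 10 of 21 gastric products were lower, beside 8.02%. At E19 the numbers were 8 of 11 and 20 of 24, beside 10.8%, and 11 of 15 and 16 of 23, beside 12%. Since the class labels come from these counts, the lists show what the classes hold. The simple keratins were split at E15, with 2 of 5 higher and 1 lower and a median of -0.12, and at E19 4 of 6 were higher and none lower, with a median of 1.72. *Krt8* and *Krt18* stood at 1088 and 333 CPM in E15 squamous cells and at 1298 and 783 CPM in columnar cells, and *Krt19* and *Krt7* were higher in squamous cells, with 1268 against 618 CPM and 436 against 147 CPM. At E19 *Krt8* and *Krt18* stood at 1808 and 573 CPM against 2216 and 977 CPM, and *Krt19* and *Krt7* at 2669 and 1908 CPM against 1073 and 150 CPM.

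Summed over 12 columnar markers and over 9 squamous markers, 11 of 47 E15 junction cells (23.4%, 12.3 to 38.0) had more columnar than squamous UMIs, against 2 of 64 esophageal squamous cells (3.12%) and all 53 columnar cells. At E19 these were 5 of 34 (14.7%, 4.95 to 31.1) and 8 of 123 (6.5%). With cells thinned to 5000 UMIs the E15 share was 17.8% (8.0 to 32.1) of 45 junction cells and 3.45% (0.42 to 11.9) of 58 esophageal cells. Without *Krt7*, *Krt8* and *Krt18*, which junction squamous cells express, it was 8.51% (2.37 to 20.4) at E15 and 11.8% (3.3 to 27.4) at E19, against 3.12% (0.381 to 10.8) and 5.69% (2.32 to 11.4) in the esophagus. *Krt7* belongs to the squamous markers and *Krt8* and *Krt18* to the columnar ones, so this setting takes UMIs from both sums. At E15 the intervals of the regions overlapped without these keratins and also with thinned cells, and at E19 they overlapped with all markers too. Doublets of a squamous and a columnar cell would also enter this count, as would free RNA, and the part of neither was tested. At E15 the 12 columnar markers summed to 2702 CPM in junction and 3632 CPM in esophageal squamous cells. The top esophageal cell held 1673 of the 3568 UMIs of that sum, and the top junction cell 251 of 2443. The order was opposite in the median cell, with 38 UMIs in the junction and 22 in the esophagus, not scaled for depth. In E15 immune cells the 12 markers summed to 3310 CPM, of which *Pgc* gave 2040 CPM. At E19 the same sums were 3982, 2874 and 2019 CPM.

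The third comparison follows the junction squamous cells from E15 to E19. Of 2125 genes with at least 100 UMIs, 139 (6.54%) were past 2-fold higher at E19 and 140 (6.59%) past 2-fold lower. Higher genes were 49.8% of those past 2-fold, and 69.0% thinned, and the median gene with at least 30 UMIs lay at -0.19. The genes highest at E19 were of the cornified envelope and the mucosal surface. *Cnfn*, cornifelin, stood at 6.63 CPM at E15 and 850 CPM at E19, *Psca* at 92.9 and 5348 CPM, *Ecm1* at 8.85 and 564 CPM, and *Ltf*, lactotransferrin, at 7.74 and 497 CPM. The 4 cells of the second label held 97.8% of the *Cnfn* UMIs, 84.2% of *Psca*, 90.1% of *Ecm1* and 75.8% of *Ltf*. With the 30 cells of the first label alone the log2 ratio of *Cnfn* was 1.6, that of *Psca* 3.37, and that of *Asprv1*, a protease of the upper layers, 1.01.

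Other genes rested on those 4 cells less or not at all. *Sprr2a3* stood at 23.2 CPM at E15 and 675 CPM at E19, with 0.275% of its E19 UMIs in the second label and a ratio of 4.99 without it. *Aqp4* stood at 8.85 and 180 CPM, with 7.22% of its UMIs there. *Areg* stood at 48.7 and 503 CPM, with none of its UMIs there. *S100a6*, a calcium-binding protein found in all cells of both stages, stood at 2164 and 9227 CPM, with 16.4% of its E19 UMIs in the second label. *Gsto1*, a glutathione transferase, was also found in all cells. It stood at 661 and 5439 CPM, with 52.3% of its UMIs in the second label and a ratio of 2.17 without it.

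Lower at E19 were genes of the dividing cell. Of 19 proliferation genes, 14 were past 2-fold lower and none higher, with a median of -1.49, beside 9.27% of all genes with at least 30 UMIs. In the esophagus 4 of the same 19 were lower, with a median of -0.77, beside 7.3% of 8452 genes. *Mki67* stood at 185 CPM at E15 and 27.8 CPM at E19 in the junction, and at 152 and 136 CPM in the esophagus. *Top2a* stood at 260 and 46.4 CPM in the junction, where 1 E19 cell held 80% of its UMIs, and 290 and 156 CPM in the esophagus. *Ube2c* stood at 228 and 11.1 CPM, and 126 and 112 CPM. *Rrm2*, a subunit of ribonucleotide reductase, had 35 UMIs at E15 and 0 at E19 in the junction. Thinned, 1 of 30 E19 junction cells (3.33%, 0.0844 to 17.2) and 19.4% (12.3 to 28.4) of E19 esophageal squamous cells had a *Mki67* UMI. Unthinned, 7 of 34 (20.6%) and 27 of 123 (21.95%) had one, so a difference in the share of cells was not detectable at this depth. The deposited phase calls placed 34.0% (20.9 to 49.3) of E15 and 23.5% (10.8 to 41.2) of E19 junction cells in S or G2M, and 46.9% and 34.1% in the esophagus.

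Against the esophagus, none of 19 proliferation genes was past 2-fold in either direction at E15, with a median of -0.1, and 9 of 18 were lower at E19, with a median of -0.95, beside 5.03% of all genes with at least 30 UMIs lower at E15 and 6.14% at E19. *Mdk* and *Hmga2*, of fetal tissue, stood at 581 and 141 CPM at E15 and 70.5 and 33.4 CPM at E19, *Shh* at 118 and 18.6 CPM, and *Foxa2* at 71.9 and 11.1 CPM. *Krt17* stood at 104 and 16.7 CPM. Suprabasal and cornified genes were higher at E19, 14 of 22 with 1 lower, beside 6.26% higher and 9.27% lower of all genes, and with a median of 1.28 beside -0.19. In the esophagus 18 of the same 22 were higher and 1 lower, with a median of 1.98, beside 4.11% higher and 7.3% lower of all genes. Markers of other cell types were higher in the junction sum at E19 as well, with 4 of 5 fibroblast markers at a median of 2.0 and 4 of 4 smooth muscle markers at a median of 3.06. Without squamous cells led by another lineage these medians came to 0.04 and 2.15, and that of the suprabasal list to 1.18.

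**Figure D5:**
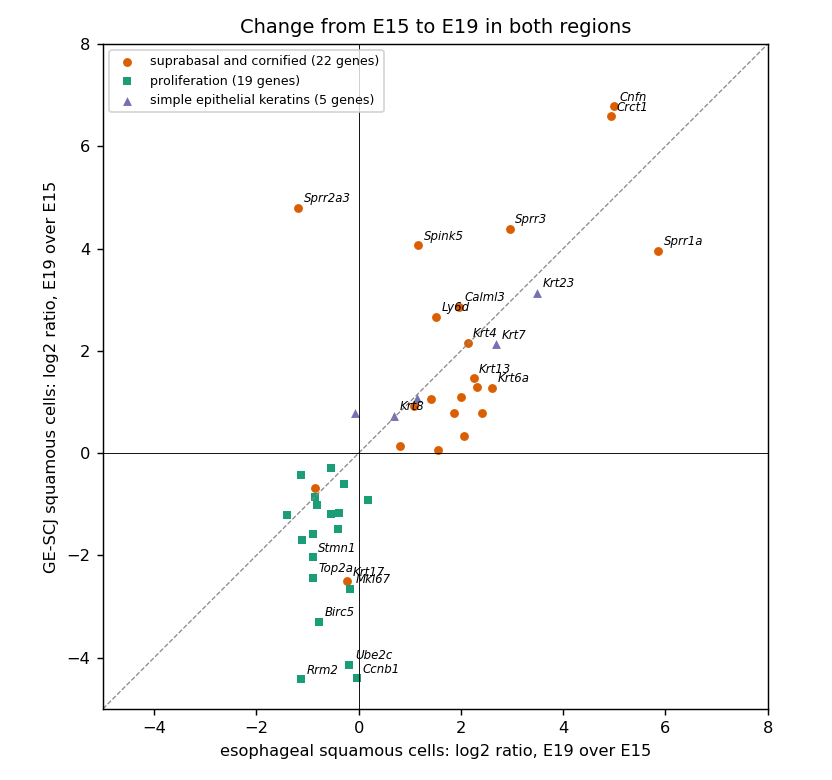
Log2 ratio of E19 over E15 in esophageal (x) and junction (y) squamous cells for 22 suprabasal, 19 proliferation and 5 simple keratin genes with at least 30 UMIs over both stages in each region; the dashed line marks equal ratios. Most proliferation genes lie below the line, and *Sprr2a3* is high in the junction alone.

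Immediate early and heat shock genes, known to respond to tissue dissociation as well as to signals, had medians of opposite sign at the 2 stages. Of 17, none was higher and 2 lower than in the esophagus at E15, with a median of -0.43, and 3 were higher and 1 lower at E19, with a median of 0.56, beside 2.31% higher and 5.03% lower of all genes with at least 30 UMIs at E15 and 5.09% and 6.14% at E19. *Fos* stood at 560 against 1038 CPM at E15 and 1462 against 617 CPM at E19. Columnar cells of the same junctions had 866 and 2014 CPM of *Fos*. Each dissection was dissociated separately, so its handling and its region cannot be told apart.

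The 20 genes named at both prenatal stages were read in the later squamous cells of the same regions. Of the 10 higher genes, 9 had the same direction in pups, 7 of them past 2-fold, and 3 of 10 in adults, none past 2-fold. Of all genes with at least 30 UMIs 12.4% were past 2-fold higher in the pup junction and 1.72% in the adult junction. *Gpx2* stood at 230 against 22.6 CPM in pups, and *Ifitm1* at 83.6 against 31.9 CPM in pups and 17.4 against 17.8 CPM in adults. Of the 10 lower genes, 9 had the same direction in pups and 9 in adults, 7 and 6 of them past 2-fold, beside 11.2% and 5.22% of all such genes. *Foxe1* stood at 4.48 against 42.2 CPM in pups and had a log2 ratio of -1.39 (-2.41 to -0.49) in adults, and *Peg3* had -2.96 and -2.33. *Krt17* turned, with 264 against 110 CPM in pups and 369 against 16.5 CPM in adults. The pup and adult cells come from other pooled mice.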

How the data were processed

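Cells of all regions and stages were tagged, pooled and sequenced as 1 library with 10x Genomics 3′ chemistry, and a second library held the tags. The authors made the deposited counts, whole UMIs per gene and cell without normalization, with Cell Ranger 6.1.1 on mm10 (GRCm38), and left out barcodes by gene number, UMI number (a screen for doublets) and mitochondrial percentage. No doublet caller was run here. The percent of mitochondrial UMIs, the phase, the cluster and the class label of each cell were deposited by the authors, who clustered the cells with Seurat after regressing out mitochondrial share and cell cycle. The matrix held 19550 genes, and UMI sums equalled the deposited totals in all 7808 cells.

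The counts were summed over the cells of a group. Each group is 1 pooled sample, so no test was run. Depth sets the precision through exact 95% Poisson intervals for CPM, conditional intervals for log2 ratios with 1 UMI added to each sum, and Clopper-Pearson intervals for shares. Genes past 2-fold were counted with at least 100 UMIs over both groups, members of lists with at least 30. Named genes are the 12 highest and 12 lowest log2 ratios per comparison, and the 10 in each direction at both stages, with a UMI in at least 25% of the cells of the higher group and an unchanged direction without the top cell; mitochondrial, ribosomal, hemoglobin and sex-linked genes were left out. All listed genes were also computed. The members, the gene lists and these rules were chosen with earlier results of these data known. Depth was evened by thinning cells to 5000 UMIs, which leaves the share of free RNA as it is. Free RNA was read from the shares in immune cells of the same stage, all regions together. Fibroblast RNA was estimated from 7 marker genes relative to fibroblasts of the same tag. Coordinates are GENCODE M21 spans of whole genes (506 of 507 matched by symbol).

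Alternatives used the mean of each cell's CPM, stricter cell filters, another library size, the first squamous label, thinned cells, squamous cells not led by another lineage, sums without the top cell, a minimum of 50 UMIs, 5 added UMIs, markers without *Krt7*, *Krt8* and *Krt18*, and other settings for the correlation. A restriction to cluster 10 was chosen after seeing the data. The scripts were tested on simulated data. The software was matplotlib 3.10.9, scipy 1.17.1, numpy 2.4.6 and pandas 2.3.3 under Python 3.11.15.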

Additional observations from a re-analysis of the deposited data

Results flagged for a closer look

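The ratio of junction to esophageal squamous cells lay past 2-fold in opposite directions at E15 and E19 for 4 genes. *Atf3*, a stress-induced transcription factor, had a log2 ratio of -1.07 at E15 and 1.75 at E19. *Basp1*, a membrane protein of growing cells, had -1.44 and 1.4. *Acta2*, smooth muscle actin, had -1.44 and 2.77, with 150 of its 237 E19 junction UMIs in 1 cell. *Dusp5*, a phosphatase that acts on ERK, had -1.28 and 1.77. Each ratio compares 1 pooled sample with another, so the difference between the stages was not tested.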

How the results depend on the processing

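No paired analysis was possible because each region and stage is 1 pooled sample, and for the same reason no replicate could be left out. Of the values of the 5 comparisons, the cell shares and the profile correlations, 48 stayed within 1.5 times the reported count or close to the reported value and 12 moved. Thinned to 5000 UMIs per cell, far fewer genes reached 100 UMIs and the genes past 2-fold numbered 34 and 71 against the esophagus at E15 and E19, 56 and 377 against columnar cells, and 58 between stages, against 130, 234, 343, 1378 and 279. With a minimum of 50 UMIs more genes entered, and the counts were 296 and 547 against the esophagus, 695 against E15 columnar cells and 570 between stages. The share of E15 cells with more columnar UMIs fell to 8.51% without *Krt7*, *Krt8* and *Krt18*. Over the 2000 most variable genes r with columnar cells was 0.731 at E15 and 0.651 at E19, below 0.884 and 0.867 with esophageal squamous cells.

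The share of higher genes among those past 2-fold at E19 moved with the UMIs added and with the top cell. Against the esophagus it was 52.1%, and 63.5% with 5 UMIs added and 39.6% without the top cell of each gene. Against columnar cells it was 35.8%, 67.3% and 22.1%. Thinned, it was 50% in place of 38.5% against the E15 esophagus, 50% in place of 37.0% against E15 columnar cells, and 69.0% in place of 49.8% between stages.

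Among values of named genes under the alternatives, 1158 stayed within the counting interval of the reported ratio, 127 left it and 1 reversed, and among medians of lists 1234 stayed within 0.5 on the log2 scale, 80 moved further and 18 reversed. The cause was not tested. Against the E15 esophagus fibroblast markers came to 0.02, smooth muscle markers to 0.03 and *Col1a2* to 0.02 without cells led by another lineage, and the positional list to -0.15 when thinned. Against the E19 esophagus gastric products came to -0.38 with the first label, -0.16 thinned, -0.28 without the top cell and -0.31 in cluster 10, the positional list to 0.06 thinned, and immune markers to 0.74 without the top cell. Against columnar cells the positional list came to -0.07 at E15 and -0.14 at E19 when thinned, growth factor genes to -0.05 and ciliated markers to 0.52 thinned, ciliated markers to 0.37 and neuroendocrine markers to 0.04 with 5 UMIs added, and fibroblast markers to -0.69 without cells led by another lineage and -1.26 in cluster 10. Between stages immune markers came to 0.24 without the top cell. Depth limits the rest: with 34 cells at E19, a gene absent from the sum may have stood at up to 5.57 CPM.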

Other observations

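*Xist*, the RNA of the inactive X chromosome, and 4 Y-linked genes were read as a check on the mice behind the cells. At least 3 *Xist* UMIs were seen in 3 of 47 E15 junction squamous cells (6.38%, 1.34 to 17.5), beside 19 of 53 columnar cells (35.8%, 23.1 to 50.2) and 79 of 350 fibroblasts (22.6%, 18.3 to 27.3) of the same tag. In E15 esophageal squamous cells the share was 7 of 64 (10.9%, 4.51 to 21.3). A Y-linked UMI was seen in 38 of the 47 junction and 55 of the 64 esophageal squamous cells. At E19 the *Xist* shares were 15 of 34 squamous cells (44.1%, 27.2 to 62.1), 50 of 123 esophageal squamous cells, 187 of 274 columnar cells and 342 of 588 fibroblasts. Cells carry no mouse label, so the number of mice behind each class is not known here. The *Xist* share differed between E15 and E19 junction squamous cells, and at E15 between squamous and columnar cells of the junction. In those comparisons the mix of mice cannot be told apart from stage or class.

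Secreted defence genes, not described above, were higher in the junction squamous cells at E19 than at E15, 10 of 15 past 2-fold and none lower, with a median of 1.22, and 9 of the same 15 in the esophagus with a median of 1.11. Of all genes with at least 30 UMIs, 6.26% were higher and 9.27% lower at E19 in the junction, and 4.11% and 7.30% in the esophagus. *Ly6a* stood at 103.9 CPM at E19 in 4 cells, and *Anxa1* at 1229 and 2863 CPM. Erythroid markers differed between the regions at E19, with 238 CPM in the junction and 4347 CPM in the esophageal squamous cells. The median cell had 127 and 124 CPM of *Hbb-bs*, a beta globin, and 1 esophageal cell held 2078 of its 4094 UMIs. With hemoglobin, mitochondrial and ribosomal genes left out of the library size, 133 values of named genes stayed within their counting intervals and 1 did not, the log2 ratio of *Cym* between E15 squamous and columnar cells, from -3.65 to -3.56.

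Ciliated cell markers were lower in the junction at E15, with 29.9 CPM against 170 CPM in the esophagus. *Foxj1*, the master regulator of multiciliated cells, had 28 UMIs in the esophagus, all in 1 cell, and 0 in the junction. *Mcidas* had 6 UMIs in 1 esophageal cell and 0 in the junction. *Msln*, mesothelin, stood at 117 CPM in E19 junction squamous cells and 121 CPM in the esophagus, with 10 of 34 junction cells positive, and *Upk3b* at 11.1 and 25.7 CPM.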
